A study of Mus musculus with 30 samples.

Results

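The zinc and copper transport genes were the genes named Slc30a or Slc39a with a number, together with Slc31a1, Slc31a2, Atp7a, Atp7b, Atox1, Ccs, Cox17 and Commd1. They were found by symbol in the annotation of the mouse build NCBIM37, which holds 32 such genes, and 31 of them were among the 21412 genes of the deposited table. These were 9 Slc30 genes, 14 Slc39 genes and 8 copper genes, and Slc30a8 was the one without a row. Hippocampus RNA of 30 male BALB/c mice, 5 in each of 6 groups, was measured by stranded single-end mRNA sequencing, and each library came from 1 mouse. Ctr mice were given an AIN-93G feed without added methylmercury (MeHg), LD mice the same feed with 0.28 mg and HD mice with 5 mg MeHg per kg, for 11 weeks. The MeHg was given bound to cysteine, and the control feed held the cysteine stock as well. Se_Ctr, Se_LD and Se_HD mice are labelled as given selenium with no, low or high mercury, and the series title names selenium-methionine. The selenium level and the mercury level of those 3 feeds were not given in the sources used here. The comparisons ask whether dietary MeHg changed the genes, and whether it did so when selenium was given too.

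Most Slc30 proteins take zinc out of the cytosol, to the outside of the cell or into vesicles and organelles, and Slc39 proteins bring it into the cytosol. Slc30a9 carries zinc out of mitochondria, and it is grouped with the exporters here by its family. In the hippocampus much of the free zinc lies in synaptic vesicles of the mossy fibres, where Slc30a3 loads it. Copper enters cells through Slc31a1, is handed on by the chaperones Atox1, Ccs and Cox17, and is pumped into the secretory pathway or out of the cell by Atp7a and Atp7b. The metallothioneins Mt1 and Mt2 bind both metals, as well as mercury, and are induced through the zinc sensor Mtf1, which binds metal response elements in promoters, as it does at Slc30a1.

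The 100 bases before the start site are shown for both metallothioneins, for Slc30a1 as the transporter known to share their regulator, and for the 2 members whose levels passed a test. They are RefSeq sequences of build GRCm38.p6, all on the plus strand, and run 5′ to 3′. Capitals mark matches to the metal response element core (TGCACNC or TGCGCNC) or to the antioxidant response element core (TGACNNNGC), on either strand.
Mt1, chr8:94178989-94179088: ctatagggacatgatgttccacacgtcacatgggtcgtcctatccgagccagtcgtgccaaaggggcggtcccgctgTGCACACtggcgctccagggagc
Mt2, chr8:94172518-94172617: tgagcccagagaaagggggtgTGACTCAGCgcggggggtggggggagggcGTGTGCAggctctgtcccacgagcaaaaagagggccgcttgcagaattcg
Slc30a1, chr1:191906681-191906780: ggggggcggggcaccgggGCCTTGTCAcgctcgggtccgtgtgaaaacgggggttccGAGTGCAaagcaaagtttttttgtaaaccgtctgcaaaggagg
Slc39a1, chr3:90248092-90248191: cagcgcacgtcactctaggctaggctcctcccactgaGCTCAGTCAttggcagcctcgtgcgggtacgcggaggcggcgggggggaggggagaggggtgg
Slc30a9, chr5:67306855-67306954: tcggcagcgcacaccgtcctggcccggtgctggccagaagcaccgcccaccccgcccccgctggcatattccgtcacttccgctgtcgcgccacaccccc
The window of Slc30a1 held 1 match to each core, that of Slc39a1 held 1 to the antioxidant core, and that of Slc30a9 held none. Of the 31 members, 26 had a promoter in the RefSeq table. In the 250 bases before the start, 14 of these 26 held a metal response core in at least 1 promoter, and 16 of their 32 promoters (50%) did, against 21.4% of the 32851 promoters of the table. The antioxidant core was in 8 of the 32, against 10.2% of all. A match of such short letters is a description of the sequence and not of binding.

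Levels were compared between genes as normalized counts per kb of annotated exon, averaged over the 30 libraries. Among the zinc exporters, Slc30a1, which releases zinc across the surface membrane, stood at 187 ± 29.0 (SD, n = 30), and Slc30a3 at 176 ± 34.9. Which of the 2 was higher changed from library to library, with Slc30a1 above Slc30a3 in 18 of 30. The mitochondrial Slc30a9 followed at 145 ± 15.3, below Slc30a3 in 26 libraries. Slc30a5 (104) and Slc30a4 (89.6) came next, then Slc30a6 (49.2), Slc30a10, which is known to export manganese (37.9), Slc30a7 (22.8) and the vesicular Slc30a2 (10.2). From Slc30a9 down, each exporter lay above the next in at least 28 of 30 libraries.

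Among the zinc importers, Slc39a10, of the cell surface, led with 265 ± 27.3 per kb and was above the next, Slc39a12, in 30 of 30 libraries. The latter, known for its expression in brain and astrocytes, was at 191 ± 20.1. Slc39a1 (152), Slc39a6 (136), a close relative of Slc39a10, and Slc39a7 (131), which releases zinc from the endoplasmic reticulum, did not keep a fixed order, since Slc39a1 was above Slc39a6 in 14 libraries and Slc39a6 above Slc39a7 in 15. Slc39a9 (107) and Slc39a3 (98.9) followed. Slc39a11 (37.4), Slc39a14 (35.9), Slc39a2 (24.0), Slc39a13 (21.7) and Slc39a8 (6.67) were lower; Slc39a14 and Slc39a8 are known to carry manganese and iron as well. Slc39a4 (2.82) and Slc39a5 (2.29), known from the gut and pancreas, were close to the limit of detection, with 0 to 22 reads and 1 to 11 reads per library.

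Among the copper genes, the chaperone Atox1 had the highest level per kb of all 31 members, at 325 ± 55.8. Ccs, which delivers copper to Sod1, was at 136, Slc31a1 at 84.6, Cox17, which serves cytochrome oxidase, at 60.9, Slc31a2 at 45.8 and Commd1 at 19.6. The pumps Atp7a (4.39) and Atp7b (3.65) were the lowest, at 14 to 69 and 11 to 45 reads per library, and Atp7a was above Atp7b in 21 of 30 libraries. The annotated exons of some genes are far longer than their main transcript. Per kb of the transcript with the longest coding sequence, Slc30a9 came to 470.3, Commd1 to 112 and Cox17 to 98.6, so the order depends on the length used. Reads of Slc30a1, Slc30a4, Slc30a10, Slc39a9 and Slc39a13 share exon positions with an antisense gene, those of Slc39a2, Slc39a7 and Cox17 with a gene on the same strand, and those of Commd1 with both, so their levels are less certain.

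**Figure D1:**
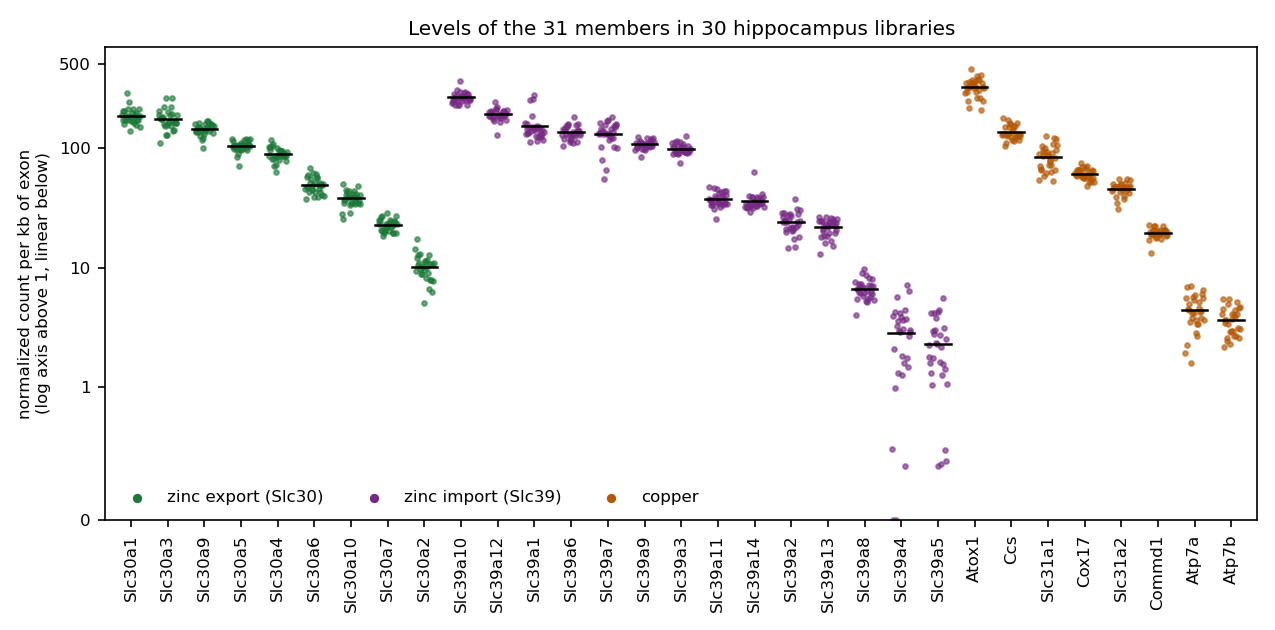
Normalized counts per kb of annotated exon (y axis, log scale above 1 and linear below) of the 31 members, in order of level within zinc exporters, zinc importers and copper genes. Each point is 1 of 30 libraries and each line the mean. Atox1, Slc39a10 and Slc30a1 lead their groups with 325, 265 and 187, and Slc39a4, Slc39a5, Atp7a and Atp7b lie below 5.

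Mice of the same group differed widely in some members. The spread between mice of a group, as a coefficient of variation, had a median of 15.4% over the 31 members. It was 7.99% for Slc39a9 and 8.08% for Slc30a9, and over 20% for Slc30a2, Slc30a3, Slc39a1, Slc39a7, Slc31a1, Atp7a and Atp7b, beside Slc39a4 and Slc39a5, where counting alone gives 38.3% and 45.2%. For Slc31a1 counting gives 5.16% of the 23.1% observed, and for Slc39a1 5.22% of 23.1%. In the members with over 100 reads the spread between mice was therefore larger than the counting error.

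Some libraries differed from the rest in ways that touch the results below. Reads on genes ranged from 5768208 to 11510521 per library, and were fewest in Ctr library 13 (libraries are given by the numbers of their labels). In that library the mitochondrial ribosomal RNA mt-Rnr2 took 4.92% of reads, against 0.806% to 1.78% in the other 29, and without it the HD change of Slc30a9 was -0.29, still called, and that of Slc30a3 -0.22, without a call. The median distance of a library's genes from their medians over all libraries ranged from 0.0716 to 0.199 on the log2 scale, and HD library 21 (0.199), HD library 15 (0.198) and LD library 20 (0.172) were farthest. LD libraries 8 (0.168) and 26 (0.167) and HD library 9 (0.166) were close behind LD library 20, so that leaving out the 3 farthest is a choice that the distances do not fix. The hippocampus markers were present in every library, except that the CA1 pyramidal marker Pou3f1 was at 0 in some. Of 12 microglia markers 12 were called higher in HD than in Ctr, and of 6 reactive astrocyte markers 6. The summed count of the 9 choroid plexus markers, a tissue that borders the hippocampus, ranged from 277 to 37815 over the libraries, and its marker Kcnj13 was at 0 in some. In bulk RNA, fewer cells of a type and less RNA per cell cannot be told apart.

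In HD mice 1 of 31 members was called against Ctr, the zinc exporter Slc30a9, which was lower. A gene was called when limma's overall F test of the 3 groups, and then the pairwise contrast, each had an unadjusted p under 0.05, which follows the study's order of testing. Of the 20031 genes tested 5.09% were called, and 1.73% were called lower. No member had a Benjamini-Hochberg adjusted p under 0.05 over all genes tested, and the lowest was 0.378, while 0.130% of all genes passed. On the contrast alone 7 members had an unadjusted p under 0.05, 4 higher and 3 lower, which is 22.6% of the members where 8.34% of all genes did (5.08% higher and 3.26% lower). The 31 members had a median log2 fold change of -0.01 (all genes 0.01) and a median size of change of 0.09 (all genes 0.16). In no member did the HD and Ctr groups lie fully apart, where 1.71% of all genes did.

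Slc30a9, on NCBIM37 chr5:67698194-67749804, encodes a protein of the mitochondria that moves zinc out of them. Its normalized counts in Ctr libraries 1, 7, 13, 19 and 25 were 1565, 1377, 1348, 1427 and 1487. In HD libraries 3, 9, 15, 21 and 27 they were 1358, 1152, 985, 1205 and 1301. Of the 5 HD libraries 4 were below every Ctr library, and HD library 3 lay just above the lowest. The mean was 1441 ± 87.3 (SD, n = 5) in Ctr and 1200.3 ± 145 in HD, a log2 fold change of -0.27 ± 0.10 (SE; 95% interval -0.47 to -0.07) with an unadjusted limma p of 0.0109 and an adjusted p of 0.378. An exact two-sided permutation test of 5 against 5 mice gave p = 0.0159, where the smallest possible is 0.00794.

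The LD mice had 1414 ± 128 counts of Slc30a9, and the log2 fold change to Ctr was -0.03 (95% interval -0.23 to 0.17). Without HD library 15 the HD change was -0.20 and was no longer called, since the F test over the groups failed, and without HD libraries 15 and 21 and LD library 20 it was -0.18. The neuron markers, 8 in all, summed to between 46712 and 69379 in HD and between 57481 and 67601 in Ctr, and 1 of them was called lower. Their part in the result was not tested. With the choroid plexus level as a covariate the HD change was -0.24, with no call.

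With selenium Slc30a9 was not called in the high dose. Se_Ctr libraries 4, 10, 16, 22 and 28 had 1374, 1561, 1419, 1469.8 and 1652 counts, and Se_HD libraries 6, 12, 18, 24 and 30 had 1558, 1532, 1513, 1328 and 1508. The groups overlapped, and the means were 1495 ± 112 and 1488 ± 91.5, a log2 fold change of -0.01 (95% interval -0.15 to 0.14; exact permutation p = 0.929, n = 5). The Se_LD mice had 1517 ± 117. The effect of the high dose with selenium minus that without was 0.26 ± 0.12 on the log2 scale (SE; interaction over 30 libraries, unadjusted p = 0.0295, adjusted p = 0.997). Since the mercury level of the selenium feeds was not given, selenium and a different dose cannot be told apart. The interaction call was lost without any one of Ctr library 1, HD library 15, Se_Ctr library 4, Se_Ctr library 16 or Se_HD library 6, with values of 0.19 to 0.25, and was 0.18 without the 3 farthest libraries.

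Averaged over the mercury doses, Slc30a9 was 0.16 ± 0.05 higher with selenium on the log2 scale (unadjusted p = 0.00217, adjusted p = 0.675), and averaged over the diets it was -0.14 ± 0.06 in the high dose (unadjusted p = 0.0229, adjusted p = 0.440). These contrasts share the HD libraries with the ones above, so they are not separate evidence. Without the 3 farthest libraries they came to 0.11 and -0.09, and neither was called. The averaged high dose also lost its call without HD library 15 alone (-0.10) and without Se_HD library 24 alone (-0.12).

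**Figure D2:**
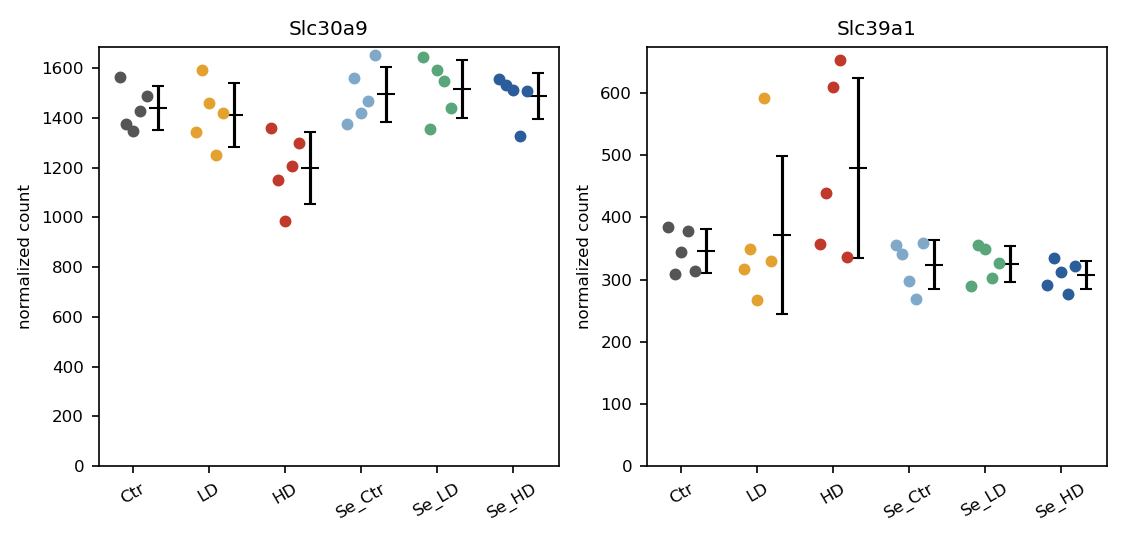
Normalized counts (y axis, from 0) of Slc30a9 and Slc39a1 in the 6 groups of 5 libraries; points are libraries, and bars give the mean and SD. The HD mean of Slc30a9 (1200.3) is the lowest of the 6, and Slc39a1 is spread from 337 to 654 in HD, with 1 high LD library.

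Slc39a1, on NCBIM37 chr3:90052094-90057534, is a surface importer of zinc found in many cell types. Its counts were 384, 308, 344, 379 and 314 in Ctr libraries 1, 7, 13, 19 and 25, and 358, 440, 609, 654 and 337 in HD libraries 3, 9, 15, 21 and 27. The 3 high HD libraries were above all Ctr libraries and the other two were inside their range. Means were 346 ± 35.2 and 479 ± 145 (SD, n = 5), a log2 fold change of 0.42 ± 0.19 (SE; 95% interval 0.02 to 0.82), with an unadjusted contrast p of 0.0387, no call by the F test and an exact two-sided permutation p of 0.0794. It was called, at the same fold change, with the sets of 6 consecutive library numbers as a covariate (unadjusted p = 0.0168) and when all 30 libraries were fitted together (unadjusted p = 0.0117). It was 0.32 without HD library 15, 0.30 without HD library 21 and 0.12 without the 3 farthest libraries, with unadjusted p of 0.114, 0.126 and 0.327.

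LD library 20 was also high in Slc39a1, with 592 counts against 268 to 350 in the other LD libraries. HD libraries 15 and 21 and LD library 20, the 3 farthest over all genes, were also the 3 highest of all 30 in Slc39a1, so that its change without them had to shrink. Summed microglia markers were 3185 to 3467 in Ctr and 4113 to 10207 in HD. They were 4782 in HD library 15, 10207 in HD library 21 and 8529 in HD library 9, but 3617 in LD library 20, which lay near the Ctr range. Reactive astrocyte markers summed to 2768 to 3381 in Ctr and 6027 to 45224 in HD, with 3813 in LD library 20. Their part in the level of Slc39a1 was not tested.

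In the selenium groups Slc39a1 was narrowly spread. It was 268 to 358 in Se_Ctr, 290 to 356 in Se_LD and 277 to 335 in Se_HD, and all 5 Se_HD libraries lay below all 5 HD libraries, which was seen, in that direction, in 0.903% of all genes. The log2 fold change of Se_HD to Se_Ctr was -0.07 (95% interval -0.26 to 0.11; exact permutation p = 0.476, n = 5). In the fit over all groups Slc39a1 was also called for the interaction of high dose and selenium and for selenium averaged over doses. The effect of the high dose with selenium minus that without was -0.49 ± 0.22 on the log2 scale (SE, unadjusted p = 0.0346, adjusted p = 0.997). Here too selenium and a different mercury dose cannot be told apart. Over all doses selenium mice had -0.28 ± 0.09 (unadjusted p = 0.00505, adjusted p = 0.675). Without the 3 farthest libraries these came to -0.20 and -0.11 and were not called, and without HD library 15 or HD library 21 alone each of them lost its call. The interaction lost it as well without any one of Ctr libraries 7 and 25, Se_Ctr libraries 4, 10 and 28 and Se_HD libraries 6 and 24, at -0.48 to -0.45.

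Slc39a1 and Slc30a9 were the members called in these contrasts and in the high dose averaged over diets (Slc30a9 alone), and the other 29 members were called in none of the 8 contrasts as set out above. The background was 2.30% of 21383 genes for selenium averaged over doses (2 of 31 members called), 2.38% for the interaction (2 of 31) and 4.21% for the high dose averaged over diets (1 of 31).

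Of the other zinc exporters, Slc30a2 and Slc30a4, both of vesicle membranes, had lower HD levels without a call. Slc30a2 was at 50.7, 33.2, 42.5, 61.4 and 45.1 in Ctr libraries 1, 7, 13, 19 and 25, and at 31.3, 35.8, 36.3, 18.0 and 34.02 in HD libraries 3, 9, 15, 21 and 27. The HD levels were mostly under the Ctr ones but overlapped with Ctr library 7. The log2 fold change was -0.58 ± 0.22 (SE, limma, adjusted p = 0.446), with 0.0171 unadjusted, and it was not called since the overall test gave 0.0544. The tools edgeR and DESeq2 did call it on the recovered reads, at -0.60 and -0.61. In the selenium groups it was -0.29 (95% interval -0.70 to 0.13), and averaged over diets -0.43 ± 0.15 (unadjusted p = 0.00627). Exact permutation of the HD and Ctr libraries gave p = 0.0317 (n = 5).

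Slc30a4 was at 473 to 643 in Ctr and 344 to 553 in HD, with a log2 fold change of -0.33 ± 0.13 (unadjusted p = 0.0247, no call) and an exact permutation p of 0.0476 (n = 5). With selenium it was -0.05 (95% interval -0.19 to 0.10). Slc30a1 differed by 0.01 between HD and Ctr (95% interval -0.30 to 0.32; exact permutation p = 0.960, n = 5), and its direction changed with the processing. Its counts were 990.1, 900.2, 1063, 1071 and 839 in Ctr libraries 1, 7, 13, 19 and 25, and 1103, 974, 1276, 723 and 884 in HD libraries 3, 9, 15, 21 and 27. The HD libraries lay on both sides of the Ctr range, and LD library 20 held 1522 counts against 892 to 968 in the other LD libraries. Slc30a3 differed by -0.07 (95% interval -0.44 to 0.30; exact permutation p = 0.802, n = 5) and also changed direction with the processing. Its counts were 397, 423, 229.7, 375 and 365 in Ctr libraries 1, 7, 13, 19 and 25, and 321, 552, 268, 270.1 and 324 in HD libraries 3, 9, 15, 21 and 27. HD library 9 was high, Ctr library 13 was low, and the groups overlapped. Slc30a5, Slc30a6, Slc30a7 and Slc30a10 differed by -0.19 to 0.07 between HD and Ctr, with unadjusted p of 0.108 or above.

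Of the other importers, Slc39a14 was 334 to 363 in Ctr and 331 to 662 in HD, with the high value in library 21. Its log2 fold change was 0.30 ± 0.14 (unadjusted p = 0.0467, no call; exact permutation p = 0.0794, n = 5), and 0.13 without HD library 21. Slc39a4 was at 0 to 8.95 in Ctr and 6.53 to 9.42 in HD, and its fold change of 1.40 (95% interval 0.10 to 2.71, unadjusted p = 0.0366, no call) rests on few reads, with 0.45 at a pseudocount of 10 and 2.23 at one of 0.1. Its level was also correlated with the choroid plexus markers, as given below, and their part in this change was not tested. Slc39a12 was 555, 602, 553, 578 and 608 in Ctr libraries 1, 7, 13, 19 and 25, and 731, 633, 639, 383 and 659.5 in HD libraries 3, 9, 15, 21 and 27. In HD 4 libraries were above all Ctr libraries and library 21 was below them. Over all 5 the change was 0.04 (95% interval -0.23 to 0.31; exact permutation p = 0.897, n = 5), and without the 3 farthest libraries it was 0.22 and was called, with an unadjusted p of 0.0318, as it was without HD library 21 alone (0.20). Astrocyte markers summed to 57271 to 66050 in HD and 49241 to 60167 in Ctr, and 4 of 10 were called higher; their part in the level of Slc39a12 was not tested.

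Slc39a10, the most abundant importer, was 1419, 1446, 1508, 1566 and 1703 in Ctr libraries 1, 7, 13, 19 and 25, and 1505, 1373, 1749.9, 2147 and 1621 in HD libraries 3, 9, 15, 21 and 27. The groups overlapped, and the change was 0.12 (95% interval -0.11 to 0.36). Slc39a7 was 264 to 424 in Ctr and stood at 144 in LD library 20, 169 in HD library 15 and 208 in LD library 8, below all other libraries. The other HD libraries held 340.0 to 442, and the change was -0.03 (95% interval -0.56 to 0.50). Slc39a8 differed by 0.31 (95% interval -0.10 to 0.72). The differences of Slc39a2, Slc39a3, Slc39a5, Slc39a6, Slc39a9, Slc39a11 and Slc39a13 were -0.09 to 0.02, all with unadjusted p of 0.417 or above.

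**Figure D3:**
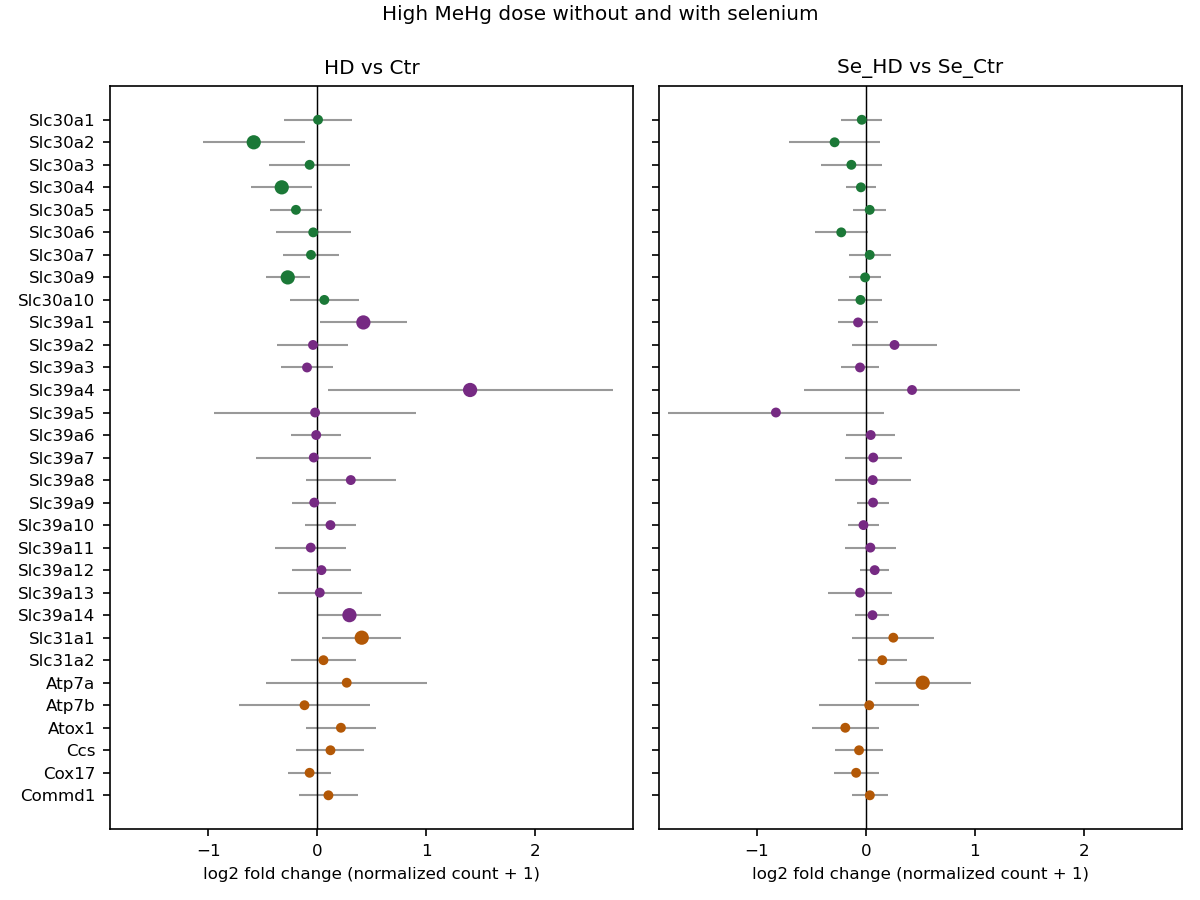
Log2 fold changes of the high dose (x axis, on normalized count plus 1) in the feeds without selenium (left) and with selenium (right), with limma's 95% intervals, for zinc exporters (green), zinc importers (purple) and copper genes (brown). Larger points have an unadjusted contrast p under 0.05, which are 7 members on the left and 1 on the right.

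Among the copper genes no member was called in any of the 8 contrasts. The uptake gene Slc31a1, on NCBIM37 chr4:62021761-62052803, was 233, 382, 301, 286 and 279 in Ctr libraries 1, 7, 13, 19 and 25, and 432, 262, 535, 399.9 and 366 in HD libraries 3, 9, 15, 21 and 27. The groups overlapped, and 3 HD libraries were above all Ctr libraries. The log2 fold change was 0.41 ± 0.17 (SE, unadjusted p = 0.0285, no call; exact permutation p = 0.103, n = 5), and averaged over diets 0.33 ± 0.13 (unadjusted p = 0.0197, no call). With the choroid plexus level as a covariate the HD change was 0.18, with an unadjusted p of 0.187, and the averaged one 0.15 (unadjusted p = 0.0751). Under the same covariate Slc31a1 was called higher in Se_LD than in Se_Ctr (0.29, unadjusted p = 0.0147), where the change without it was 0.10.

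Slc31a1 followed the choroid plexus markers over the 30 libraries. In the 6 libraries with the lowest marker sums it was 225 to 306, and in the 6 with the highest it was 366 to 516, and those ranges did not overlap. On the log2 scale Pearson's r was 0.82 and Spearman's rho 0.88 (permutation p = 1e-05 for both, the smallest that 100000 permutations can give, and 0.00031 and 0.00015 adjusted over the 31 members). The correlation was 0.85 without the 2 libraries farthest from the median of the markers, and 0.85 after the group means were taken out. Of the genes tested that are not markers themselves, 0.384% had an r as high. Slc39a4 had an r of 0.59 and a rho of 0.75 (adjusted p = 0.0194 and 0.00015). Atp7a had an r of 0.56 (adjusted p = 0.0206) and a rho of 0.44 (adjusted p = 0.146). Without the same 2 libraries r was 0.55 for Slc39a4 and 0.45 for Atp7a, and both genes have few reads. The other 28 members had an absolute r under 0.5 over the 30 libraries. The marker sums had medians of 10915 in Ctr, 13018 in LD, 27199 in HD, 14213 in Se_Ctr, 23598 in Se_LD and 28640 in Se_HD, and the ranges of the 6 groups overlapped.

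**Figure D4:**
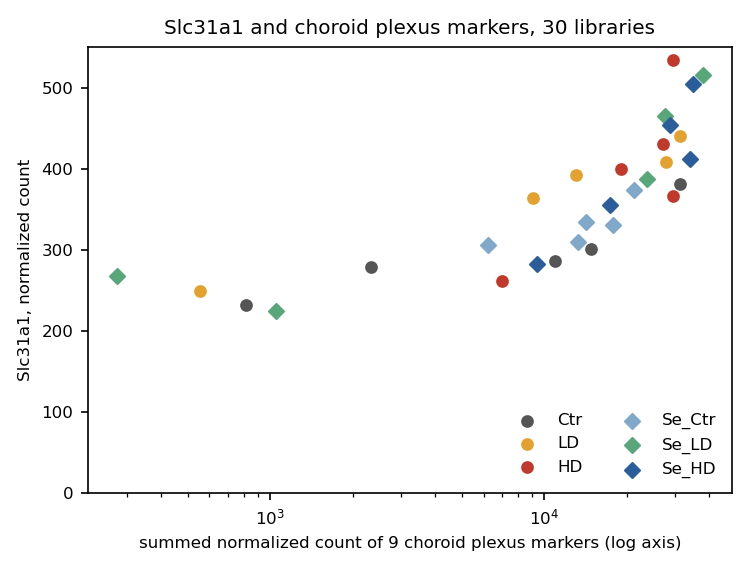
Slc31a1 (y axis, normalized count) against the summed normalized count of 9 choroid plexus markers (x axis, log scale) in 30 libraries, with circles for feeds without and diamonds for feeds with selenium. Slc31a1 is higher in libraries with more marker RNA over all 30 libraries, with Pearson's r of 0.82 on the log2 scale.

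The copper pump Atp7a was 51.3, 24.7, 32.0, 29.3 and 23.3 in Se_Ctr libraries 4, 10, 16, 22 and 28, and 38.2, 52.6, 49.0, 56.7 and 31.9 in Se_HD libraries 6, 12, 18, 24 and 30. The groups overlapped, with Se_Ctr library 4 among the Se_HD levels, at a log2 fold change of 0.52 ± 0.21 (SE, unadjusted p = 0.0228, F test p = 0.0700, no call; exact permutation p = 0.0714, n = 5). Without selenium it was 16.9 to 59.6 in Ctr and 33.3 to 49.8 in HD, and the change of 0.27 had a 95% interval of -0.47 to 1.01. Atp7b changed by -0.12 (95% interval -0.71 to 0.48). Atox1 was 157, 189, 174, 158 and 133 in Ctr libraries 1, 7, 13, 19 and 25, and 190.5, 200.0, 187, 173 and 188 in HD libraries 3, 9, 15, 21 and 27. The groups overlapped, with a change of 0.22 (95% interval -0.10 to 0.54; exact permutation p = 0.0556, n = 5), and -0.19 (95% interval -0.50 to 0.12) with selenium. Slc31a2, Ccs, Cox17 and Commd1 differed by -0.07 to 0.12 between HD and Ctr, with unadjusted p of 0.425 or above.

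In the other contrasts no member was called, while 1.46% of genes were called in LD against Ctr, 1.46% in Se_LD and 2.06% in Se_HD against Se_Ctr, and 1.30% in Se_Ctr against Ctr. Under the contrast alone there was 1 member in LD (Slc39a2), 0 in Se_LD, 1 in Se_HD (Atp7a) and 1 in Se_Ctr against Ctr (Slc39a2), where the share was 3.01%, 3.31%, 4.19% and 4.00% of all genes. The importer Slc39a2 was 82.3 to 99.2 in Ctr, 50.4 to 86.7 in LD and 60.0 to 75.0 in Se_Ctr. All Se_Ctr libraries were below all Ctr libraries, which 0.730% of genes showed in either direction, but Se_LD held 51.4 to 129 counts, and the change of -0.37 (unadjusted p = 0.0402, adjusted p = 1) was not called. The LD fold change of Slc39a2 was -0.35 ± 0.16 (unadjusted p = 0.0366, no call). With 5 mice a group, the 95% intervals had a median half-width of 0.32 in LD and HD against Ctr. It was 0.22 within the selenium groups and 0.27 for Se_Ctr against Ctr. In a member with such a half-width, a smaller observed change has an interval that includes 0.

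Single libraries decided whether several of the members named above were called. The share of all genes called in each of these refits is not given here, so the counts are no result about the members. Without Ctr library 7 alone, 5 members were called in HD, namely Slc30a9, Slc30a2 (-0.69), Slc30a4 (-0.38), Slc31a1 (0.50) and Slc39a4 (1.80). Slc30a2 was also called without HD library 9 (-0.64) or HD library 15 (-0.65), Slc30a4 without HD library 21 (-0.41), Slc31a1 without HD library 9 (0.55) and Slc39a14 without HD library 15 (0.38). The importer Slc39a1 was called in HD without HD library 3 (0.52) or HD library 27 (0.54). In LD against Ctr, Slc39a2 was called without LD library 2 (-0.42) or LD library 20 (-0.40), while without LD library 26 its change was -0.23 (unadjusted p = 0.134). Slc31a1, at 0.32 in LD with all libraries (unadjusted p = 0.0820), was called there without LD library 26 (0.45) or Ctr library 7 (0.41), Slc30a10 without Ctr library 13 (0.39), Slc39a4 without LD library 8 (1.33) and Slc31a2 without LD library 20 (-0.32). In Se_HD against Se_Ctr, Atp7a was called without Se_Ctr library 4 (0.70) or Se_HD library 30 (0.64). In the selenium groups Slc30a6 was called without Se_Ctr library 10 (-0.31 in Se_LD and -0.30 in Se_HD), Cox17 without Se_Ctr library 28 (-0.24 and -0.18), Slc39a5, on few reads, also without the latter in Se_HD (-1.22), and in Se_LD Atp7a without Se_Ctr library 4 (0.42) and Slc39a2 without Se_LD library 11 (0.46). In Se_Ctr against Ctr, Slc30a10 was called without Ctr library 13 (0.36).

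**Figure D5:**
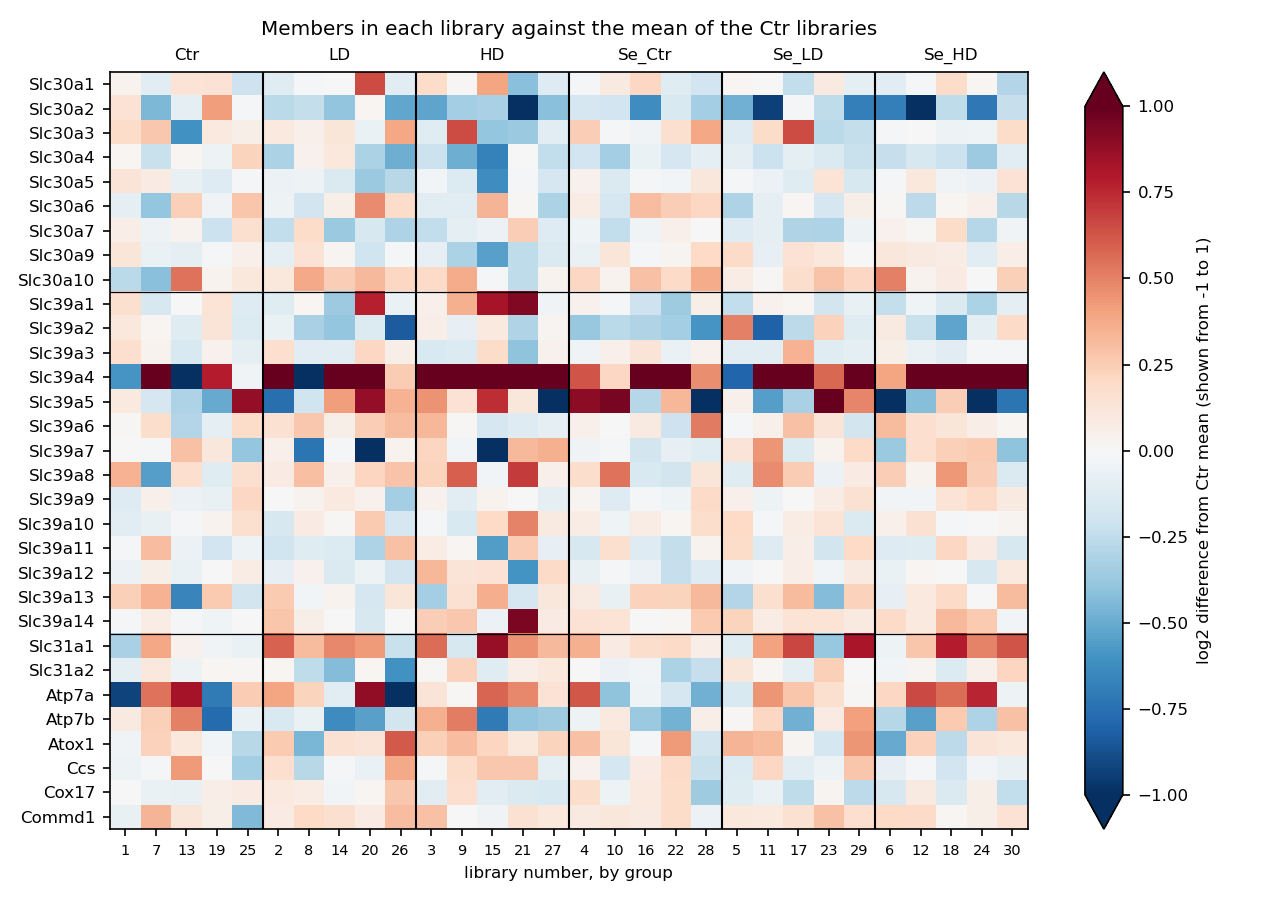
Log2 difference of each member (rows) from its mean in the Ctr libraries, for each of 30 libraries (columns, by group and library number), with colours cut at -1 and 1. HD libraries 15 and 21 and LD library 20 hold many of the strong colours, as in Slc39a1, Slc39a7 and Slc30a1, and the rows of Slc39a4 and Slc39a5 rest on few reads.

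Of the metallothionein genes, whose proteins bind the ions that the transporters move, and their regulator, Mt1, Mt2, Mt3 and Mtf1, 2 were called higher in HD, where 5.09% of all genes were called in either direction. Mt2 was 589 to 903 in Ctr and 940.4 to 2615 in HD, and the groups lay apart, but the HD libraries were uneven, with a median of 1082 below their mean of 1402 ± 702 (SD, n = 5). By limma its log2 fold change was 0.90 ± 0.21 (unadjusted p = 0.000338, adjusted p = 0.109). Mt1 was 842 to 1154 in Ctr and 1055 to 2141 in HD, a change of 0.55 ± 0.18 (unadjusted p = 0.00689, adjusted p = 0.304). Of the reactive astrocyte markers 6 of 6 were called higher in HD as well, with the sums given above for Slc39a1. In Se_HD against Se_Ctr 2 of these markers were called higher, while neither Mt1 nor Mt2 was called. The part of the markers in the result was not tested. With selenium Mt2 was 401 to 737 in Se_Ctr and 542 to 748 in Se_HD, and the effect of the high dose with selenium minus that without was -0.81 ± 0.28 (unadjusted p = 0.00644, adjusted p = 0.798). For Mt1 that difference was -0.44 ± 0.23 (unadjusted p = 0.0680, no call). Both genes were called lower for selenium averaged over doses (Mt2 -0.49, Mt1 -0.39, adjusted p = 0.536 for both), where 2.30% of all genes were called. Slc30a1, whose promoter holds the metal response core too, was not called in any contrast.

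Of 33 genes for copper enzymes and copper handling in the table, 4 were called in HD, where 5.09% of all genes were, and 1 or 0 in each of the other contrasts between 2 groups, where the share was 1.30% to 2.06%. The secreted superoxide dismutase Sod3 (0.52 ± 0.17) and the lysyl oxidase relative Loxl3 (0.56 ± 0.25) were higher, and the amidating enzyme Pam (-0.23 ± 0.09) and Moxd1 (-0.32 ± 0.15) were lower, with adjusted p of 0.285 to 0.583. The copper-carrying plasma protein Cp was called in Se_HD against Se_Ctr (0.70 ± 0.19, unadjusted p = 0.00112, adjusted p = 1.00), in Se_Ctr against Ctr (-0.60 ± 0.23) and in the high dose averaged over diets (0.40 ± 0.16), where Sod3 was called as well (0.44 ± 0.12). Commd3, a relative of Commd1, was called lower in Se_LD against Se_Ctr (-0.29 ± 0.07). The median log2 fold change of the 33 genes in HD against Ctr was 0.07, and no gene of either list had an adjusted p under 0.05.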

How the data were processed

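RNA of 30 hippocampi was measured. The authors trimmed reads with Trim Galore 0.4.2, mapped them with HISAT2 to NCBIM37, counted them per gene with featureCounts (whether by strand is not given in the sources used here) and divided the counts by DESeq2 size factors. The deposited values are thus signal values, and 100% were whole reads within 0.01 once multiplied by the factor, so counts were recovered. In LD library 26 the factor is close to 1, which makes the whole multiples less telling, and its reads entered the count models all the same. Symbols, positions and exons came from the annotation of that build. The log2 of value plus 1 was fitted with limma 3.58.1 (R 4.3.3, trend) over genes with a sum of at least 10, separately over Ctr, LD and HD, over the selenium groups, and over all 30 libraries. Fold changes are on this scale, which understates those of low genes. Groups came from the labels. edgeR 4.0.16 and DESeq2 1.42.0 ran on recovered reads. The default limma, edgeR and DESeq2 fits were tried on simulated counts, for HD against Ctr only. The other contrasts, covariates and settings were not tried in this way. Exact permutation tests used scipy 1.17.1, under Python 3.11.15. Members, lists and tests were chosen with earlier results of these data known. Every member is named; values per library are given for members called, for the highest of each role, for Slc30a1, Slc30a3, Slc39a12 and Atp7a, and, chosen after seeing values, for Slc30a2 and Slc31a1, with ranges for Slc30a4, Slc39a2, Slc39a4, Slc39a7 and Slc39a14. The authors' proteomics was not used here.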

Additional observations from a re-analysis of the deposited data

Results flagged for a closer look

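In 14 of 186 groups of 5 libraries, 1 library of a member stood far from the other 4 (gap over range above 0.71), where chance gives about 1 in 20, or 9.3. HD library 21 was such a library for Slc30a2 (lowest, 0.729), Slc39a12 (lowest, 0.720) and Slc39a14 (highest, 0.749). LD library 20 was highest for Slc30a1 (0.880) and Slc39a1 (0.748). LD library 26 was lowest for Slc39a9 (0.771) and highest for Slc39a11 (0.737), and HD library 9 was highest for Slc30a3 (0.803) and Cox17 (0.870). The others were HD library 15 for Slc30a5 (lowest, 0.711), Se_HD library 24 for Slc30a9 (lowest, 0.783), Se_HD library 30 for Slc30a3 (highest, 0.761), Se_LD library 17 for Slc39a3 (highest, 0.953, with 508 counts against 366 to 373) and Ctr library 7 for Slc39a14 (highest, 0.718).

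The interaction contrast of high dose and selenium was called for Slc30a9 (0.264) and Slc39a1 (-0.495), both with an adjusted p of 0.997. Both calls hung on single libraries, as given above. The mercury level of the selenium feeds was not given, so selenium and a different dose cannot be told apart.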

How the results depend on the processing

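No paired analysis by replicate number was possible because the labels give no such numbers. A fit blocked on the 5 sets of 6 consecutive library numbers, each with 1 library per group, was run, but the labels do not say what a set shares. Members called in HD against Ctr numbered 1 and became 2 with a mean of at least 10, quantile normalization, no trend, edgeR or DESeq2 (Slc30a2 added), with the set covariate or all 30 libraries in one fit (Slc39a1 added), 7 on the contrast alone, 0 with adjusted p and 0 with the choroid plexus covariate. In LD against Ctr 0 became 1 without trend or on the contrast alone, and 2 without the 3 libraries farthest from the gene medians. Se_LD went from 0 to 1 (Slc31a1) with the choroid plexus covariate, and Se_HD and Se_Ctr against Ctr from 0 to 1 on the contrast alone. The high dose averaged over diets went from 1 to 2 without trend or with DESeq2, 6 on the contrast alone, and 0 with the choroid plexus covariate or adjusted p. Selenium averaged over doses and the interaction went from 2 to 0 with adjusted p or without the 3 libraries, and the interaction to 1 without trend. On the contrast alone selenium averaged over doses went to 3 (Slc30a5 added, at 0.12). The choroid plexus covariate and the omission of 3 libraries were chosen after seeing the data. For each contrast, the libraries of the groups it compares were left out in turn. Libraries of other groups, which enter the F test, were not left out. This gave 0 to 2 members in LD, 1 to 5 in HD (5 without Ctr library 7), 0 to 1 in Se_LD, 0 to 2 in Se_HD and 0 to 1 in Se_Ctr against Ctr. It gave 0 to 3 for the averaged high dose (0 without Se_HD library 24, 3 without HD library 21), 1 to 2 for averaged selenium and 0 to 2 for the interaction (0 without Se_Ctr library 4 or Se_HD library 6). Signs changed for HD against Ctr in Slc30a1 (-0.0333 with the choroid plexus covariate, and -0.0896 to 0.115 without 1 library), Slc30a3 (0.0520 with that covariate, 0.139 without the 3 libraries, and -0.250 to 0.0103 without 1 library), Slc39a12 (-0.0344 to 0.198 without 1 library) and Slc39a10 (-0.0275 without the 3 libraries). The cause of these moves was not tested. For the alternative fits the share of all genes called is not given here, so their counts of members called cannot be set against it. Slc30a9 was called in HD in 20 of the 23 alternatives that refit its fold change, and not with adjusted p. Depth limits Slc39a4, Slc39a5, Atp7b, Slc30a2 and Atp7a most.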
